A study of Mus musculus with 4 samples.

Results

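The 10 genes described here encode the parts by which a cell cuts its own proteins into peptides and shows them on MHC class I. They are the class I heavy chains H2-K1, H2-D1 and H2-Q4, the light chain B2m, the peptide transporter chains Tap1 and Tap2, the loading protein Tapbp (tapasin) and the immunoproteasome subunits Psmb8, Psmb9 and Psmb10. They were taken by symbol from a table of 18200 genes, and all 10 had values above 0 in every library. The table holds RNA from polysomes (messenger RNA that carries several ribosomes) of mouse ADSCs, the labels' name for the cells, which the series title places among mesenchymal stem cells. Of the 4 libraries, 2 are labelled Kd, for knockdown of Ifit1 by a short hairpin RNA, and 2 are labelled Sc, for a scrambled control. The genotype is given as WT for both groups. The sources used here do not state strain, sex, age, passage or any interferon treatment of the cells. Replicate 1 of each group is labelled batch 1 and replicate 2 is labelled batch 2, and nothing states that the replicates were separate cultures. A p-value here therefore covers the spread among these 4 libraries alone, possibly a technical one. Total RNA is not analysed here, so the amount of a messenger RNA and its loading with ribosomes cannot be told apart, nor can fewer cells of a type and less RNA per cell.

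Class I molecules consist of a polymorphic heavy chain and B2m, and they carry a short peptide to the cell surface, where CD8+ T cells inspect it. The peptides come from the proteasome, enter the endoplasmic reticulum through the Tap1-Tap2 transporter and are loaded with the help of Tapbp. In most cells the catalytic proteasome subunits are Psmb5, Psmb6 and Psmb7. Interferons induce Psmb8, Psmb9 and Psmb10, which take the places of Psmb5, Psmb6 and Psmb7 in newly built particles, together with the heavy chains and the transporter. Mesenchymal stromal cells are known for low class I levels that rise after exposure to interferon.

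Several properties of the 4 libraries bear on every value below. Ifit1, the gene named as the knockdown target, had 13.9 and 14.8 FPKM (fragments per kilobase of gene, scaled to library depth) in the libraries labelled Kd, against 1.93 and 1.91 FPKM in those labelled Sc. It was 7.47-fold higher (log2 change 2.39, limma adjusted p = 0.00016) where the label calls for less, so directions are given as those of the libraries labelled Kd against the libraries labelled Sc. Whole fragments were recovered from the FPKM of 8693 of the 8750 genes tested and of 18143 of all 18200 genes. Over these 18143 genes the totals were 29012002 and 26467591 fragments in the libraries labelled Kd and 24449223 and 29826088 in those labelled Sc. Of 8707 genes with at least 100 fragments in each library, 5730 had replicates within 5% of each other in both groups. In 1339 others the replicates of both groups were more than 10% apart while Kd replicate 1 matched Sc replicate 2, and Kd replicate 2 matched Sc replicate 1, within 5%. The same count for pairs of 1 batch was 0. H2-K1, H2-D1, Psmb8 and Psmb10 belonged to the 5730 genes, B2m belonged to neither set, and the other members had too few fragments for this count. Of the mesenchymal stromal marker list all 14 were analysed and 4 were under 1 FPKM in every library, with summed levels of 959 and 976 FPKM in the libraries labelled Kd and 1250 and 1240 FPKM in those labelled Sc, mostly from Vim, a filament protein. Of its 10 tested markers 7 were higher and 3 lower (median log2 change 0.44), beside 27.4% of all tested genes called higher and 41.2% lower. Vim fell by 0.39 and Col1a2, a collagen chain, by 1.53 on the log2 scale, while Thy1, named after its values were seen, was 8.29-fold higher. Of 18 leukocyte markers 9 were analysed and 7 of these were under 1 FPKM in every library. The leukocyte list summed to 9.30 and 9.48 FPKM in the libraries labelled Kd and to 9.38 and 9.27 FPKM in those labelled Sc, almost all from Cd14 and Coro1a. Of 10 endothelial markers 5 were analysed and 4 of these were under 1 FPKM in every library. Of these 4, named after their values were seen, Flt1 differed 0.534-fold, and Pecam1, Tek and Vwf had 0 to 4 fragments per library. Summed levels of endothelial markers were 4.72 and 4.49 FPKM in the libraries labelled Kd and 1.73 and 1.66 FPKM in those labelled Sc, almost all from Egfl7. Those of epithelial and mesothelial markers were 102 and 103 FPKM in the libraries labelled Kd and 170 and 165 FPKM in those labelled Sc, mainly from Krt19, a keratin that was lower. Of the 5 tested, 3 others were higher, and these were Krt8 (9.14-fold), Krt18 (6.15-fold) and Krt7 (3.25-fold), all keratins named after their values were seen. Msln, the remaining tested marker, did not pass (log2 change 0.02), although it was called higher after median-centring (log2 0.2). Of 8 adipocyte markers 5 were analysed and 2 of these were under 1 FPKM in every library. The adipocyte list summed to 7.65 and 7.72 FPKM in the libraries labelled Kd and to 8.38 and 8.36 FPKM in those labelled Sc. Pparg was 0.317-fold and Fabp4, named after its values were seen, 0.572-fold (both lower), and Cebpa was 1.9-fold (higher). Lpl, below the filter and likewise named afterwards, differed 2.62-fold, and without the filter it was called higher (limma adjusted p = 0.0016). The part of these markers in the results below was not tested.

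In the libraries labelled Kd the immunoproteasome subunits, the class I heavy chains and both transporter chains were higher, by 1.62-fold to 20.6-fold. B2m was 1.74-fold higher with a wider spread, and Tapbp did not pass the test. Both libraries labelled Kd lay above both labelled Sc for 9 of the 10 members, where 28.1% of all 18200 genes did so. Values were compared with limma on log2(FPKM + 1) over the 8750 genes that averaged at least 1 FPKM, with Benjamini-Hochberg adjustment over those genes and a threshold of 0.05. Of the 10 members 8 passed that filter, 7 were called higher and 0 lower, beside 27.4% of tested genes called higher and 41.2% called lower. H2-Q4 and Psmb9 passed the filter only through the libraries labelled Kd, and Tap1 and Tap2 averaged under 1 FPKM. Both group means reached the filter in 6 members, and of these all but Tapbp were called. Because of the added 1, log2 changes come out too small for weakly measured genes, so folds of mean FPKM are given beside them.

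**Figure D1:**
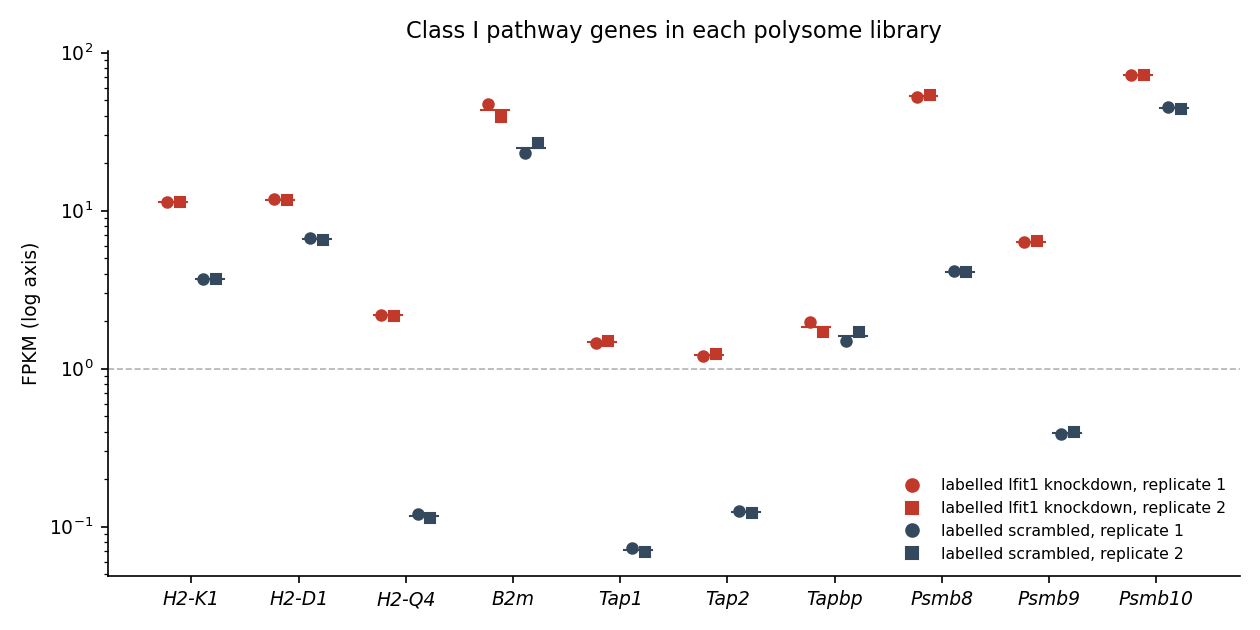
FPKM (log axis) of the 10 members in each library, those labelled Ifit1 knockdown in red on the left and those labelled scrambled in dark blue on the right of each gene. Circles are replicate 1, squares replicate 2, short lines the group means, and the dashed line is 1 FPKM. Tap1, Tap2, H2-Q4 and Psmb9 lay below the line only in the libraries labelled scrambled, and Tapbp is the member whose groups meet.

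The classical heavy chains H2-K1 and H2-D1, which present peptides to CD8+ T cells, were measured at similar levels in the libraries labelled Kd and at different levels in those labelled Sc. H2-K1 (Entrez 14972) had 11.4 and 11.3 FPKM in the libraries labelled Kd, against 3.72 and 3.67 FPKM in those labelled Sc. The groups did not overlap, and the mean of 11.3 ± 0.0756 FPKM in the libraries labelled Kd was 3.06-fold that of 3.69 ± 0.0414 FPKM in those labelled Sc (SD, n = 2 each; log2 change 1.39, SE 0.017, limma adjusted p = 0.00016). H2-D1 (Entrez 14964) had 11.8 and 11.7 FPKM in the libraries labelled Kd and 6.69 and 6.53 FPKM in those labelled Sc. Its difference was 1.78-fold (log2 change 0.74, SE 0.019, limma adjusted p = 0.00017), with 1.76-fold in batch 1 and 1.80-fold in batch 2. In the libraries labelled Kd the counting intervals of both genes overlapped (10.8 to 11.8 FPKM for H2-K1, 11.2 to 12.4 FPKM for H2-D1; exact Poisson, 95%, counting error only). In those labelled Sc they were apart, at 3.40 to 4.01 FPKM for H2-K1 and 6.16 to 7.08 FPKM for H2-D1.

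H2-Q4 (Entrez 15015), a nonclassical chain of the Qa region, was nearly unmeasured in the libraries labelled Sc. It had 2.19 and 2.16 FPKM in the libraries labelled Kd and 0.121 and 0.114 FPKM in those labelled Sc, from 155 and 140 fragments (labelled Kd) and 7 and 8 (labelled Sc). The fold of the means was 18.5 (log2 change 1.51, SE 0.014, limma adjusted p = 0.00016; log2 change 3.39 with a pseudocount of 0.1). The mean of the libraries labelled Sc has a counting interval of 0.0659 to 0.194 FPKM. Class I chains are close copies of one another and differ between mouse strains, and the sources used here do not state how reads that match several of them were assigned. Levels of single chains are therefore uncertain, and these chains are read side by side with the other class I chains below.

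The promoters of the 3 heavy chains are shown because they share a regulatory stretch. That of B2m is shown because it holds the other kind of interferon-type element. The heavy chains were 3.06-fold (H2-K1), 1.78-fold (H2-D1) and 18.5-fold (H2-Q4) higher in the libraries labelled Kd. Whether the shared stretch plays a part in this was not tested. RefSeq windows (build GRCm38.p6, 250 bases before to 50 after the start) were matched by gene ID for 9 of the 10 members. They were searched on both strands for the interferon-stimulated response element (ISRE; GAAA on both sides of any pair of bases), GAAGTGAAA (the interferon consensus sequence of class I promoters), the palindromic kappaB site of the class I enhancer, TTCNNNGAA (the gamma-activated site, GAS) and CCAAT. Capitals mark matches to the kappaB site, which comes first in H2-K1 and H2-D1, to the reverse complement of GAAGTGAAA, and, in B2m, to the ISRE. The windows are chr17:34000298-34000597, minus strand, for H2-K1 (the first of 2 starts listed); chr17:35262844-35263143, plus strand, for H2-D1; chr17:35379367-35379666, plus strand, for H2-Q4; and chr2:122147437-122147736, plus strand, for B2m.
H2-K1: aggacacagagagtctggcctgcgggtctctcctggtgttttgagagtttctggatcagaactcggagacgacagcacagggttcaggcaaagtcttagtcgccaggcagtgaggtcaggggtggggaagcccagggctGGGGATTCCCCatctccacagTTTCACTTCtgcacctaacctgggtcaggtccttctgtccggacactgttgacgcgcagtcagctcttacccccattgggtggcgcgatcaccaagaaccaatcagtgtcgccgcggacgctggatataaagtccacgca
H2-D1: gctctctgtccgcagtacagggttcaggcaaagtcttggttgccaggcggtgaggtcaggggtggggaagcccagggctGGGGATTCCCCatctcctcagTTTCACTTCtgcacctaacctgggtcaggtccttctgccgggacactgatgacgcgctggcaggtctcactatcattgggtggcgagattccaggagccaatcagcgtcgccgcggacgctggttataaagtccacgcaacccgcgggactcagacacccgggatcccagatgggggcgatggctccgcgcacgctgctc
H2-Q4: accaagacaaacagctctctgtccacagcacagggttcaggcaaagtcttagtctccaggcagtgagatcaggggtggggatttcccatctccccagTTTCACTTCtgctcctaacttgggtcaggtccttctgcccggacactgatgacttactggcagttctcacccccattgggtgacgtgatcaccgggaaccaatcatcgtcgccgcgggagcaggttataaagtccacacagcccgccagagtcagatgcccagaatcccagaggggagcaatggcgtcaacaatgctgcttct
B2m: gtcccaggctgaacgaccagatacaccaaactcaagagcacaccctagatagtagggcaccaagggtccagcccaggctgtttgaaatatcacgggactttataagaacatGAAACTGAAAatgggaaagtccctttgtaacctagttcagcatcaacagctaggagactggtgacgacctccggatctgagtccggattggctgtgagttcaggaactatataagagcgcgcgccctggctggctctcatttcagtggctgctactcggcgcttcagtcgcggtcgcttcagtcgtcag

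GAAGTGAAA was present, as its reverse complement, in the windows of H2-K1, H2-D1 and H2-Q4 and in 0.522% of 27025 promoters of the same length. The kappaB site was present in those of H2-K1 and H2-D1, in both 10 bases before the other match, and in 0.0222% of promoters. The 30 bases that end with the reverse complement of GAAGTGAAA, as printed, were identical at 29 positions between H2-K1 and H2-D1 and at 28 between either and H2-Q4. The ISRE was present in B2m and in 3.49% of promoters. Neither GAAGTGAAA nor the ISRE was found in the windows of Psmb8, Psmb9, Psmb10, Tap1 and Tapbp, and Tap2 had no window. Folds of the means ran from 1.74 to 18.5 in the genes with either match. In the searched genes without them they ran from 1.15 to 20.6. TTCNNNGAA was present in Psmb8 and in 8.47% of promoters, while CCAAT was present in 7 of the 9 windows searched and in 37.9% of promoters. Psmb9 and Tap1 lie head to head with 226 bases between their starts, so their windows share 275 bases. A match describes letters in a window, and binding was not measured.

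B2m (Entrez 12010), the light chain without which class I chains do not reach the surface, was the most abundant class I chain in every library. It had 47.6 and 39.4 FPKM in the libraries labelled Kd and 23.2 and 26.9 FPKM in those labelled Sc. The groups did not overlap, but replicates differed by more than counting error, by 5.02 counting SDs between the libraries labelled Kd and by -2.80 between those labelled Sc (replicate 1 minus replicate 2). The means were 43.5 ± 5.83 FPKM in the libraries labelled Kd and 25 ± 2.56 FPKM in those labelled Sc (SD, n = 2 each; log2 change 0.77, SE 0.136, limma adjusted p = 0.016), with 2.05-fold in batch 1 and 1.47-fold in batch 2. The call was lost in a fit blocked by batch (adjusted p = 0.0578), without Sc replicate 1 (adjusted p = 0.0613) and without Kd replicate 1 (adjusted p = 0.0661), while the log2 change stayed between 0.64 and 0.94 over the alternatives run. Relative to B2m, the 3 heavy chains together came to 53.2 and 63.8 FPKM per 100 FPKM of B2m in the libraries labelled Kd, against 45.3 and 38.4 in those labelled Sc. The exact two-sided permutation p was 0.333, the smallest that 2 against 2 libraries allow.

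Tap1 and Tap2, the paired chains of the peptide transporter, were close to the counting limit in the libraries labelled Sc. Tap1 (Entrez 21354) had 1.46 and 1.49 FPKM in the libraries labelled Kd and 0.0737 and 0.0694 FPKM in those labelled Sc, from 170 and 159 fragments (labelled Kd) and 7 and 8 (labelled Sc). Tap2 (Entrez 21355) had 1.2 and 1.23 FPKM in the libraries labelled Kd and 0.125 and 0.123 FPKM in those labelled Sc, from 118 and 111 fragments (labelled Kd) and 10 and 12 (labelled Sc). The folds of the means were 20.6 for Tap1 and 9.81 for Tap2. Neither entered the test, and without the filter on low values, where 21.0% of 18200 genes were called higher, both were higher with limma adjusted p = 0.00035 (log2 changes 1.21 and 0.98). Tap2 per 100 FPKM of Tap1 was 82.2 and 82.7 in the libraries labelled Kd, against 169 and 178 in those labelled Sc (exact two-sided permutation p = 0.333, the smallest possible). From the summed fragments the exact binomial intervals of that ratio were 69.4 to 97.9 in the libraries labelled Kd and 85.9 to 359 in those labelled Sc, where only 22 Tap2 and 15 Tap1 fragments were counted. These intervals are no test of the difference between the groups.

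Tapbp (Entrez 21356), which holds class I chains at the transporter until a peptide binds, was the tested member that did not pass. It had 1.97 and 1.71 FPKM in the libraries labelled Kd and 1.49 and 1.71 FPKM in those labelled Sc, and the groups overlapped at Kd replicate 2 and Sc replicate 2. Its log2 change of 0.13 had an SE of 0.075 (limma adjusted p = 0.25), and the ratio was 1.32-fold in batch 1 and 0.998-fold in batch 2. It passed as higher when libraries were centred on their medians (log2 0.30, adjusted p = 0.0146) and after quantile normalization (log2 0.20, adjusted p = 0.0498). Over all tested genes the median log2 change was -0.02, and centring shifted it by 0.17 to 0.15. Gm19412, a noncoding gene that overlaps the start of Tapbp in RefSeq and was named after its values were seen, had 3.64 and 2.46 FPKM in the libraries labelled Kd and 2.23 and 3.24 FPKM in those labelled Sc. Its reads cannot be told from those of Tapbp unless strand was used, on which the sources used here are silent.

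The immunoproteasome subunits differed in both starting level and size of change. Psmb8 (Entrez 16913), the chymotrypsin-like subunit, had 52.6 and 53.9 FPKM in the libraries labelled Kd and 4.14 and 4.08 FPKM in those labelled Sc. Its log2 change of 3.41 (SE 0.022, limma adjusted p = 0.00016), or 13-fold, ranked 9th from the top among 8750 tested genes on this scale. Psmb9 (Entrez 16912), which replaces the caspase-like Psmb6, had 6.29 and 6.41 FPKM in the libraries labelled Kd and 0.388 and 0.399 FPKM in those labelled Sc. It was 16.1-fold higher (log2 change 2.40, SE 0.016, limma adjusted p = 0.00016) from 318 and 297 fragments in the libraries labelled Kd and 16 and 20 in those labelled Sc. With a pseudocount of 0.1 the log2 changes were 3.66 for Psmb8 and 3.71 for Psmb9, so their order depends on the pseudocount. Psmb10 (Entrez 19171), the trypsin-like subunit, was the most abundant member in both groups and changed least of the 3. It had 72.6 and 72.4 FPKM in the libraries labelled Kd and 45.1 and 44.2 FPKM in those labelled Sc, 1.62-fold (log2 change 0.69, SE 0.019, limma adjusted p = 0.00018).

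**Figure D2:**
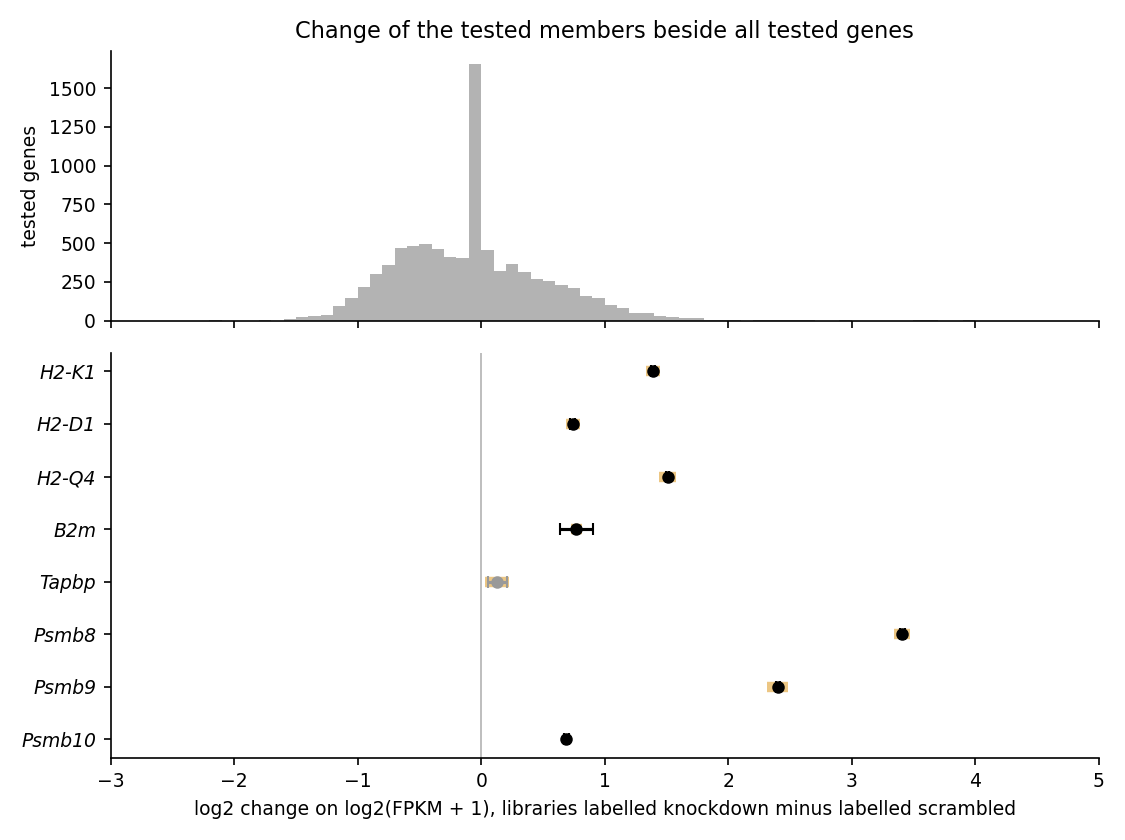
Top, number of tested genes (8750 in all) by log2 change on log2(FPKM + 1), libraries labelled knockdown minus labelled scrambled. Bottom, the 8 tested members on the same axis, black where called and grey where not, with limma SE as thin bars and counting SE as wide orange bars. Psmb8 at 3.41 and Psmb9 at 2.40 lie in the far right tail, and Tapbp at 0.13 near the centre.

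For most members the limma SE was smaller than counting error alone. The SE was 0.014 for H2-Q4 and 0.022 for Psmb8, where the counting SE was 0.070 and 0.065, and over all tested genes the medians were 0.0208 and 0.0382. In H2-K1, H2-D1, H2-Q4, Tap1, Tap2, Psmb9 and Psmb10 the replicates of a group were within 0.65 counting SDs of each other. In Psmb8 they were within 0.87 and in Tapbp within 0.99. With standard errors kept from falling below counting error, the 7 members remained called, with limma adjusted p from 0.000671 (Psmb8) to 0.0174 (B2m). Of these 7, H2-Q4 and Psmb9 had entered the test only through the libraries labelled Kd, so their kept calls add no support. This floor adds no variation between cultures, so the kept calls do not measure how well the differences would repeat.

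The order of levels per gene length, in the libraries labelled Kd, was Psmb10, Psmb8, B2m, H2-D1, H2-K1, Psmb9, H2-Q4, Tapbp, Tap1 and Tap2. In those labelled Sc it was Psmb10, B2m, H2-D1, Psmb8, H2-K1, Tapbp, Psmb9, Tap2, H2-Q4 and Tap1. Psmb8 thus stood second in the libraries labelled Kd, against the 4th place in those labelled Sc. Neighbours with overlapping counting intervals were H2-D1 and H2-K1, H2-Q4 and Tapbp, Tapbp and Tap1, and Tap1 and Tap2 in the libraries labelled Kd, and Psmb8 and H2-K1, Tap2 and H2-Q4, and H2-Q4 and Tap1 in those labelled Sc.

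Set against the constitutive subunits they replace, the immunosubunits remained a small part of the catalytic proteasome messages. Together they made up 4.97% and 4.94% of the summed FPKM of both kinds in the libraries labelled Kd, against 1.9% and 1.88% in those labelled Sc. Psmb8 came to 4.61 and 4.63 FPKM per 100 FPKM of Psmb5 in the libraries labelled Kd and to 0.411 and 0.407 in those labelled Sc, an 11.3-fold difference in the ratio. Psmb9 per 100 FPKM of Psmb6 was 0.728 and 0.732 in the libraries labelled Kd and 0.0480 and 0.0493 in those labelled Sc, 15.0-fold. Psmb10 per 100 FPKM of Psmb7 was 14.3 and 14.1 in the libraries labelled Kd and 6.04 and 6.02 in those labelled Sc, 2.36-fold. The libraries of the groups did not overlap in any of these ratios, and each had an exact two-sided permutation p of 0.333, the smallest possible.

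Among the constitutive subunits themselves, Psmb7 was lower and Psmb5 slightly higher. Psmb7 had 506 and 513 FPKM in the libraries labelled Kd and 747 and 734 FPKM in those labelled Sc (log2 change -0.54, SE 0.021, limma adjusted p = 0.00026). Psmb5 averaged 1150 ± 16.1 FPKM in the libraries labelled Kd and 1000 ± 4.00 FPKM in those labelled Sc (SD, n = 2 each; log2 change 0.20, limma adjusted p = 0.0035), and lost the call after quantile normalization (log2 0.01, adjusted p = 0.856). Psmb6 averaged 870 ± 8.31 FPKM in the libraries labelled Kd and 810 ± 0.783 FPKM in those labelled Sc (SD, n = 2 each; log2 change 0.10, limma adjusted p = 0.016). Its call was lost in a fit blocked by batch (adjusted p = 0.114) and without any one library (adjusted p from 0.0610 to 0.144), and its sign turned after quantile normalization (log2 -0.03).

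**Figure D3:**
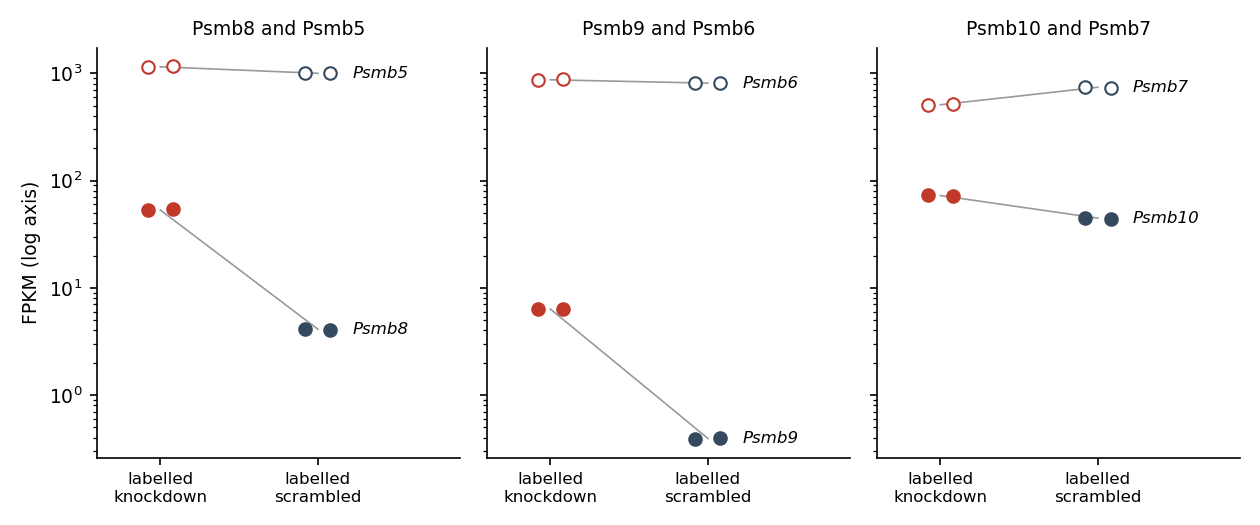
FPKM (log axis) of each immunosubunit (filled) and the constitutive subunit it replaces (open) in the libraries labelled knockdown (left, red) and labelled scrambled (right, dark blue). Points are libraries, with replicate 1 left of replicate 2, and grey lines join the group means. Psmb8 and Psmb9 lie far below their partners in both groups, and Psmb10 lies closest to its own, at 14.3 and 14.1 per 100 FPKM of Psmb7 in the libraries labelled knockdown.

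Among the remaining core subunits, assembly factors and peptidases more genes were called lower than higher, as among all tested genes, although after median-centring the counts were 4 and 4 for the core subunits and 2 and 2 for the assembly factors, which also had 2 and 2 in a fit blocked by batch and without Sc replicate 1. Of 11 other 20S core subunits 2 were higher, 5 lower and 4 not past (median log2 change -0.11, against -0.02 over all tested genes). Over all tested genes 27.4% were called higher and 41.2% lower. The alpha-ring gene Psma4 had 174 and 177 FPKM in the libraries labelled Kd and 385 and 379 FPKM in those labelled Sc (log2 change -1.12), and Psma5, Psma6 and Psma1, of the same ring, fell by 0.66, 0.63 and 0.61 on the log2 scale (limma adjusted p = 0.0002 each). Of the other alpha-ring genes, named after their values were seen, Psma3 was higher (log2 change 0.50, limma adjusted p = 0.0003), and Psma2 (-0.03) and Psma7 (0.06) did not pass. Of 8 assembly factors and activator subunits 2 were higher, 4 lower and 2 not past (median -0.13). Psme1 and Psme3, activator subunits named after their values were seen, were lower (log2 changes -0.16 and -0.32, limma adjusted p = 0.0041 and 0.012). Psme2, an activator subunit likewise named afterwards, did not pass (log2 change -0.01). The assembly chaperone Psmg3 was higher by 0.69 and the maturation factor Pomp, which builds both kinds of particle, by 0.31 on the log2 scale (adjusted p = 0.0994 for Pomp after quantile normalization), while Psme4, the nuclear activator PA200, fell by 0.94 and the chaperone Psmg1 fell by 0.39. Of 7 cytosolic peptidases analysed, which trim or destroy proteasome products, 1 was higher, 4 lower and 2 not past (median -0.73). Those that fell were the aminopeptidase Npepps (log2 change -1.35), Ide (-1.11), Blmh (-1.06) and Lap3 (-0.73).

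Of 9 other class I chains analysed, 2 passed the filter, H2-T22 and H2-T23, and both were called higher, beside 27.4% of all tested genes. H2-T22, a nonclassical chain seen by gamma delta T cells, was the most abundant heavy chain, with 28.9 and 28.5 FPKM in the libraries labelled Kd and 12.9 and 12.6 FPKM in those labelled Sc (2.25-fold; log2 change 1.11, SE 0.020, limma adjusted p = 0.00016). H2-T23, known as Qa-1, averaged 4.26 ± 0.0605 FPKM in the libraries labelled Kd and 2.63 ± 0.0141 FPKM in those labelled Sc (SD, n = 2 each; 1.62-fold, log2 change 0.53). H2-M3 averaged under 1 FPKM and was named after its values were seen; it came to 103 and 88 fragments in the libraries labelled Kd and to 27 and 31 in those labelled Sc. The others had 0 to 3 fragments in every library. Of the summed FPKM of H2-K1, H2-D1, H2-Q4, H2-T22, H2-T23 and H2-M3, H2-T22 took 48.6% and 48.3% in the libraries labelled Kd and 48.7% and 48.8% in those labelled Sc. The share of H2-K1 was 19.1% in both libraries labelled Kd, against 14.1% and 14.2% in those labelled Sc, and the share of H2-D1 was 19.8% and 19.9% in the libraries labelled Kd, against 25.4% and 25.2% in those labelled Sc. Fcgrt, the neonatal Fc receptor chain, which also pairs with B2m, was higher by 0.54 on the log2 scale (19.0 ± 1.47 FPKM in the libraries labelled Kd and 12.8 ± 0.815 FPKM in those labelled Sc, SD, n = 2 each; limma adjusted p = 0.0095). It was the 1 tested of 4 class I-like genes analysed. Below the filter, and named after their values were seen, the antigen-presenting Mr1 and Cd1d1 differed 0.984-fold and 1.71-fold and the iron regulator Hfe 0.661-fold, and without the filter Cd1d1 was called higher and Hfe lower (limma adjusted p = 0.0021 and 0.0076).

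Few loading and trimming genes of the endoplasmic reticulum were called. Of 10 analysed, 7 were tested, 1 was higher, 1 lower and 5 not past (median log2 change -0.06). Of all tested genes 27.4% were called higher and 41.2% lower. Canx, the chaperone of newly made heavy chains, averaged 6.01 ± 0.0518 FPKM in the libraries labelled Kd and 4.38 ± 0.0355 FPKM in those labelled Sc (SD, n = 2 each; log2 change 0.38, limma adjusted p = 0.00032). Tapbpl, a relative of tapasin, was called lower at a log2 change of -0.06 (adjusted p = 0.027), which rested on this scaling: it was 0.11 after centring on medians and 0.04 after quantile normalization, and the call was lost in a fit blocked by batch (adjusted p = 0.169). Bcap31 (log2 change -0.12) and Ganab (-0.06) did not pass, and their signs turned after median-centring (0.05 and 0.11). Within groups several of the loading and trimming genes varied more than between groups. Pdia3, an oxidoreductase of the loading complex named after its values were seen, had 6.10 and 3.92 FPKM in the libraries labelled Kd and 3.94 and 6.31 FPKM in those labelled Sc. Sec61a1, of the channel into the endoplasmic reticulum and likewise named afterwards, had 16.5 and 10.7 FPKM in the libraries labelled Kd and 10.9 and 16.6 FPKM in those labelled Sc. Both were high in Kd replicate 1 and Sc replicate 2, and so, less markedly, was B2m within its groups. Tapbp leaned the same way, but its replicates differed by only 0.99 (labelled Kd) and -0.85 (labelled Sc) counting SDs. The heavy chains, Tap1, Tap2 and the immunosubunits did not show this pattern. What sets this pattern was not tested.

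**Figure D4:**
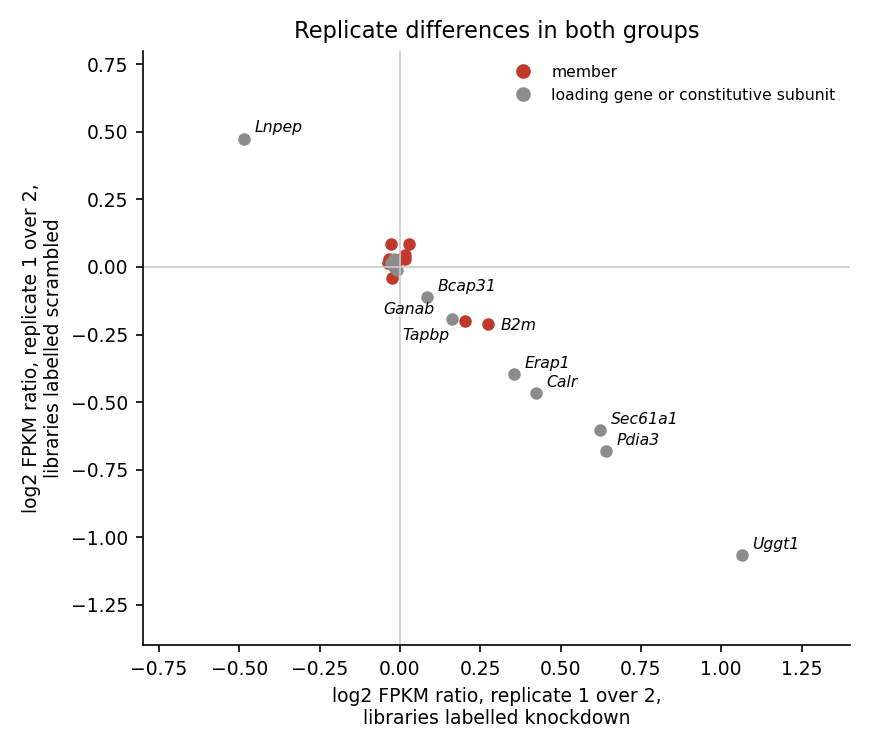
Log2 ratio of FPKM in replicate 1 over replicate 2, in the libraries labelled knockdown (horizontal) and labelled scrambled (vertical), for the 10 members (red) and for the loading genes and constitutive subunits (grey). Most members sit near 0 on both axes. B2m and Tapbp lie on the falling line with Calr, Sec61a1, Pdia3 and Uggt1, with ratios of 1.21 and 1.15 in the libraries labelled knockdown and 0.865 and 0.871 in those labelled scrambled. For Tapbp these replicate differences came to only 0.99 and -0.85 counting SDs.

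Factors known to act on class I promoters moved in both directions. Of 14 tested of 17, 3 were higher, 9 lower and 2 not past (median log2 change -0.38). Beside these stand 27.4% of all tested genes called higher and 41.2% called lower. Irf9 had 23.1 and 24.4 FPKM in the libraries labelled Kd and 5.66 and 5.67 FPKM in those labelled Sc (4.19-fold; log2 change 1.89, SE 0.033), and Stat2 had 2.91 and 2.99 FPKM in the libraries labelled Kd and 1.12 and 1.11 FPKM in those labelled Sc (log2 change 0.90; limma adjusted p = 0.00016 each). Irf9 is the DNA-binding part of a complex that recognises interferon-stimulated response elements, and Stat2 is one of its partners there. Nfkb1, the p50 precursor that binds kappaB sites, fell to 8.95 and 9.16 FPKM in the libraries labelled Kd, against 19.2 FPKM in both labelled Sc (log2 change -1.01), and Nfya, of the factor that binds CCAAT, fell by 0.88. Nlrc5, the class I transactivator, averaged under 1 FPKM and was named after its values were seen. It came to 79 and 71 fragments in the libraries labelled Kd and 15 and 18 in those labelled Sc. Irf1, likewise named afterwards, did not pass (0.947-fold, log2 change -0.07, limma adjusted p = 0.53). Irf2, also named afterwards, averaged under 1 FPKM and differed 0.629-fold.

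Class II genes, which mark professional antigen-presenting cells, were measured at low levels, with a higher sum in the libraries labelled Kd. Of 9 analysed, 8 were under 1 FPKM in every library. The list summed to 2.47 and 2.43 FPKM in the libraries labelled Kd and to 0.592 and 0.529 FPKM in those labelled Sc, mostly from H2-DMb1. H2-DMb1, a chain of the class II peptide editor, was the tested member, with 1.88 and 1.81 FPKM in the libraries labelled Kd and 0.339 FPKM in both labelled Sc (log2 change 1.09, SE 0.018, limma adjusted p = 0.00016). It passed the filter only through the libraries labelled Kd. H2-Ab1, a class II beta chain that was named with its values known, had 9 and 8 fragments in the libraries labelled Kd and 0 in both labelled Sc. Likewise named afterwards, Ciita, H2-Aa and H2-DMb2 had 0 to 4 fragments per library, and Ciita differed 1.03-fold. H2-DMa, also named afterwards, had 66 and 31 fragments in the libraries labelled Kd and 15 and 30 in those labelled Sc.

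**Figure D5:**
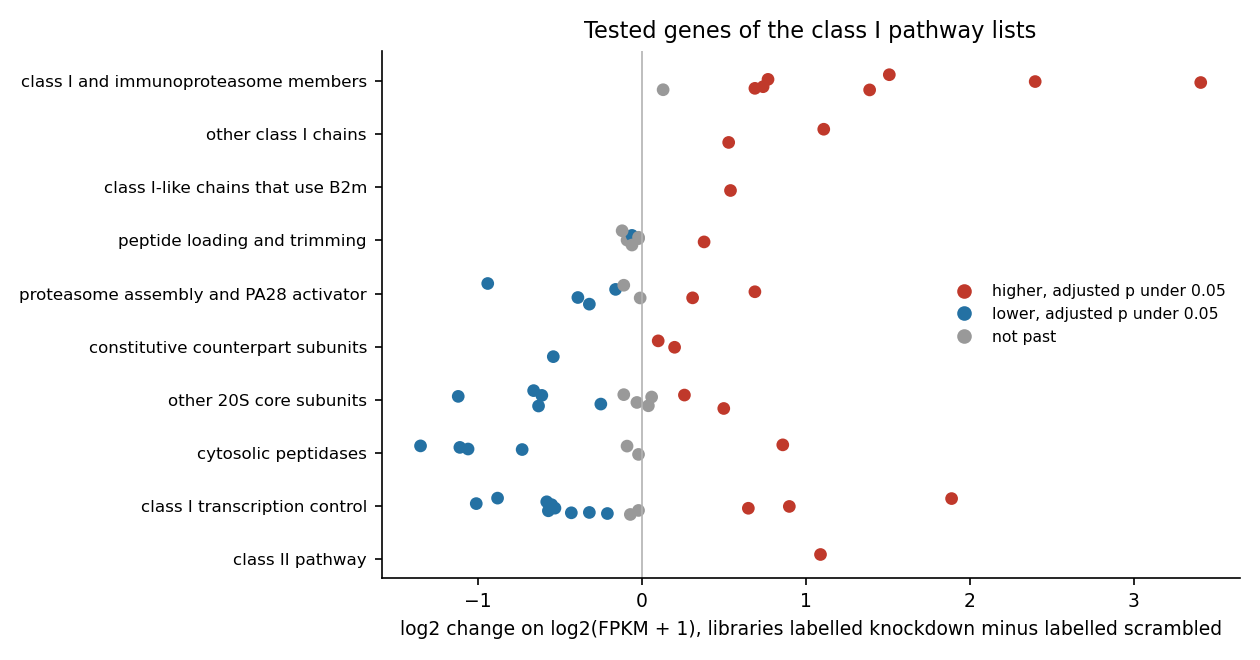
Log2 change on log2(FPKM + 1), libraries labelled knockdown minus labelled scrambled, of each tested gene of the pathway lists. Red points were higher and blue points lower at an adjusted p under 0.05, and grey points did not pass. The class I chains and immunosubunits lie right of 0, while peptidases, core subunits and transcription factors spread to both sides.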

How the data were processed

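The 4 libraries (2 labelled Kd, 2 labelled Sc) come from polysome RNA of mouse ADSCs. Trizol extraction, bead capture of mRNA and heat fragmentation preceded library construction, per the labels' protocols. The deposited values are FPKM, computed by the authors and named so in the labels. The submitters' processing notes name GRCm38, mm10 and GRCm39 without a role. Aligner, counter, annotation and strandedness: not given in the sources used here. All value columns were used.

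Whole fragments were recovered from the steps of low FPKM values for 99.3% of tested genes, tried up to 60000 (relative tolerance 3e-08; tested on simulated data). They are the smallest whole numbers that give the values, so true numbers can be multiples. Genes with a mean of at least 1 FPKM (8750 of 18200) were compared as log2(FPKM + 1) with limma 3.58.1 in R 4.3.3 (eBayes with trend, two-sided, no batch term, Benjamini-Hochberg, threshold 0.05, 3.06 degrees of freedom). Replicate numbers coincide with the labelled batches, which pairs the libraries by label. Across the tested genes the difference between replicates correlated at r = -0.831 between the groups. Ratios of 2 genes were compared by exact permutation. Intervals (95%) are exact Poisson or binomial and cover counting error only, since PCR copies are not independent. Python 3.11.15, numpy 2.4.6, scipy 1.17.1, pandas 2.3.3 and matplotlib 3.10.9 were used.

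Members and lists were chosen with earlier results of these data known. Named genes are the 10 members, Ifit1, all tested constitutive counterparts and class II genes, the 4 tested genes with the smallest p of each other pathway list, and the 2 most abundant tested genes of each marker list. Alternatives were a pseudocount of 0.1, no filter, median-centring, quantile normalization, batch as a block, leaving out each library, and standard errors no smaller than counting error.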

Additional observations from a re-analysis of the deposited data

How the results depend on the processing

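No result changed direction among the members. The log2 changes of H2-K1, H2-D1, H2-Q4, Psmb8, Psmb9 and Psmb10 kept their side of the threshold under every alternative run, although with a pseudocount of 0.1 that of H2-Q4 was 3.39 in place of 1.51 and that of Psmb9 3.71 in place of 2.40. H2-Q4 and Psmb9 passed the filter only through the libraries labelled Kd. B2m (log2 0.77) lost its call with batch as a block (0.77) and without Sc replicate 1 or Kd replicate 1, within a range of 0.64 to 0.90 over the 4 libraries left out in turn, and Tapbp gained one after median-centring (0.30) and quantile normalization (0.20). With batch as a block 6 members were called higher, with no filter 9, and between 6 and 7 with 1 library left out. The block ended no other member's call. With libraries paired crosswise (Kd replicate 1 with Sc replicate 2), which was added with the data in view, 2962 genes and 8 members were higher and 4282 genes and 0 members lower.

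Without the filter 3819 genes were higher in place of 2401, because 18200 genes were tested, and so were 2 genes each of the B2m-binding class I-like list and the class II list, with 1 gene of the class I-like list lower. In the loading list the 1 lower gene was lost (0) after median-centring, after quantile normalization, with batch as a block, with the counting-error floor and without any one library (0 in each). Among assembly factors 1 was higher after quantile normalization, 2 were lower after median-centring, 2 in the fit blocked by batch, and 2 to 4 with 1 library left out. Of the constitutive counterparts 0 were higher after quantile normalization, 1 with batch as a block and 1 without any one library. Of the other core subunits 4 were higher after median-centring and 1 after quantile normalization. The cause was not tested.

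The difference between groups in heavy chains per 100 FPKM of B2m (16.7) was 7.87 in batch 1, 25.4 in batch 2 and 11.4 to 22 with 1 library left out. With a pseudocount of 1 the differences were 4.19 for Psmb8 per Psmb5, 0.672 for Psmb9 per Psmb6 and -15.3 for Tap2 per Tap1, the last because 1 FPKM exceeds the level of both genes in the libraries labelled Sc. Psmb8 per Psmb5 differed by 4.2 in batch 1 and by 4.22 in batch 2. Depth limits H2-Q4, Tap1, Tap2 and Psmb9, which rest on 7 to 20 fragments per library labelled Sc.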

Other observations

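Psmb9, Tap1, Psmb8 and Tap2 follow each other in that order on mouse chromosome 17 in RefSeq, with H2-DMb1 as the neighbour before Psmb9. All of these genes had higher values in the libraries labelled Kd, whose FPKM were 1.88 and 1.81 for H2-DMb1, 6.29 and 6.41 for Psmb9, 1.46 and 1.49 for Tap1, 52.6 and 53.9 for Psmb8 and 1.2 and 1.23 for Tap2. In the libraries labelled Sc the FPKM were 0.339 in both for H2-DMb1, 0.388 and 0.399 for Psmb9, 0.0737 and 0.0694 for Tap1, 4.14 and 4.08 for Psmb8 and 0.125 and 0.123 for Tap2. The folds of the means were 5.44, 16.1, 20.6, 13 and 9.81 in that order. These genes, whose levels differ widely within a library, were thus each at least 5.44-fold apart between the groups. Of all 18200 genes 28.1% had both libraries labelled Kd above both labelled Sc, and the share this far apart was not counted. In the libraries labelled Sc, H2-DMb1 rested on 14 and 17 fragments and Psmb9 on 16 and 20. Tap1 rested there on 7 and 8 and Tap2 on 10 and 12, so these folds are loosely fixed. H2-Ob, the next gene after Tap2, had no values, and the order of genes farther out was not looked up. Of the other members on chromosome 17, Tapbp differed 1.15-fold, H2-D1 1.78-fold, H2-K1 3.06-fold and H2-Q4 18.5-fold. On other chromosomes B2m differed 1.74-fold and Psmb10 1.62-fold.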
